A study of Mus musculus with 4 samples.

Results

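The integrins and niche adhesion molecules described here are 31 mouse genes out of 32227 in the count matrices, chosen by symbol: 15 integrin subunits, the selectin ligand Selplg, the hyaluronan receptor Cd44, endomucin (Emcn), 8 immunoglobulin-superfamily adhesion molecules, 3 tetraspanins and the integrin adaptors Fermt3 and Tln1. All 31 symbols were found in both matrices. The cells were lineage-negative, cKit-positive bone marrow cells, with or without Sca1, from wild-type mice. E0771, a line of mouse breast cancer cells, had been injected into every animal 3 days before the operation, and marrow was taken on day 9 after it. The surgery group had the femoral artery tied off, which cuts the main blood flow of the hind limb, and the sham group had a sham operation. Each group had 4 replicates, 2 in each of 2 pooled libraries, told apart by hashtags, oligonucleotide tags that mark the cells of each replicate. Whether a replicate was 1 mouse or pooled mice is not stated, nor is the age of the mice, so the p-values measure only the spread between these replicates. By the treatment labels 1 library would be all ligation and 1 all sham, but the names of the hashtags put both groups in each library, and these names were followed. In batch 2 the matrix lists the surgery hashtags first, unlike its label. Every surgery comparison rests on these names, so values within each batch are given beside the main ones.

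Integrins are heterodimers of an α and a β subunit that anchor cells to matrix proteins and to counter-receptors on other cells. In bone marrow, α4β1 on stem and progenitor cells binds VCAM-1 and fibronectin on stromal and endothelial cells, and blocking it releases progenitors into the blood. The β2 integrins of leukocytes bind ICAM proteins, PSGL-1 (Selplg) binds selectins, and kindlin-3 (Fermt3) and talin (Tln1) bind the β tails and switch integrins to their binding state. The lineage antibodies of the sort are not named in the labels. Such panels often hold an antibody to CD11b, the product of Itgam, so the level of Itgam in granulocytic cells is a level among cells that passed that sort.

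Of the 17065 barcodes of batch 1 and 13568 of batch 2 that passed the filters, 14678 and 12264 carried exactly 1 hashtag, and 4 of these barcodes occurred in both libraries. Their UMIs, the counts of distinct captured transcripts, totalled between 19521590 and 51862441 per replicate. The median per cell lay between 5861 and 7191 UMIs in batch 1 and between 10291 and 12406 UMIs in batch 2. Marker genes, none of them among the 31, placed 22144 cells (82.2%) in 11 classes with at least 10 cells in every replicate. They were 5539 neutrophil-granulocyte progenitor, 4351 monocyte progenitor, 3344 B, 2378 erythroid progenitor, 2261 HSC and early multipotent progenitor, 1250 lymphoid-primed progenitor, 1231 basophil-mast progenitor, 720 megakaryocyte progenitor, 488 T, NK or innate lymphoid, 348 dendritic and 234 mature neutrophil cells. A class is a set of cells gated on markers, and cells near a gate are less certain: 332 of the 2261 HSC-class cells led the next class by less than 0.1 above the required margin of 0.2. The T, NK or innate lymphoid class was led by NK-cell genes. The B class was led by Ebf1 and by genes of B-cell precursors such as Vpreb1 and Igll1, so the name B cells does not show that they were mature. The mature neutrophil class was gated from cKit-positive cells and is named for its markers alone. Its cells also held a median of 10 of the 12 neutrophil-granulocyte progenitor markers, so the name does not show that they were mature. The dendritic class was shallow, with a median of 2165 UMIs per cell, so its values are the least precise beside those of the 234 mature neutrophils. Doublets were removed only where a barcode carried several hashtags. Levels are given as CPM, the UMIs of a gene per 1000000 gene UMIs of a replicate and class. They are levels of RNA, also where a chain, receptor or adaptor is named, and no protein was measured here. The chemistry counts transcript ends, so CPM values are not per length and are compared between classes, not between genes.

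The promoters of 4 genes are shown because they belong to neighbouring genes whose levels differed by class. Itgam and Itgax lie 11055 bases apart on chromosome 7, on the plus strand, and Itga2 and Itga1 lie 20995 bases apart on chromosome 13, on the minus strand. Each sequence runs from 250 bases before to 50 bases after the gene start in RefSeq (GRCm38.p6), 5′ to 3′ on the strand of the gene. Capitals mark the 5 motifs searched on both strands: the GATA motif GATAA, the PU.1 motif GAGGAA, the C/EBP motif TTGCNNNAA, the RUNX motif TGTGGT and the NF-kB motif GGGNNNTCC.
Itgam, chr7:128062390-128062689: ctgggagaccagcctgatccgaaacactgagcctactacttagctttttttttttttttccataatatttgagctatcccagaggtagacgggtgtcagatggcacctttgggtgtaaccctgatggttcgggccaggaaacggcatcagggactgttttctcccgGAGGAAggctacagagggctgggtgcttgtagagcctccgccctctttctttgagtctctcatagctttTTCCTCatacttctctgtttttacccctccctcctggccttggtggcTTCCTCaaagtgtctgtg
Itgax, chr7:128129300-128129599: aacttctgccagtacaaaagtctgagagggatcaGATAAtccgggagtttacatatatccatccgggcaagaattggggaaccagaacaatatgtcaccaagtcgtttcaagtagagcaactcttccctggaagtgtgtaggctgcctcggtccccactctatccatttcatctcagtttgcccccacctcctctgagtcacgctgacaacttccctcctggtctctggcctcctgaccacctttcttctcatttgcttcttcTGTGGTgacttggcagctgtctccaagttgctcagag
Itga1, chr13:115101915-115102214: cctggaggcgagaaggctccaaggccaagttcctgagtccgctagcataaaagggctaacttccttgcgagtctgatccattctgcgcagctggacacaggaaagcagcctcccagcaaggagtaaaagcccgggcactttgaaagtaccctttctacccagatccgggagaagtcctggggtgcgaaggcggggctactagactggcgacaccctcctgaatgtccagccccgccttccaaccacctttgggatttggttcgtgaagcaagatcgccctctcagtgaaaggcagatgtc
Itga2, chr13:114932051-114932350: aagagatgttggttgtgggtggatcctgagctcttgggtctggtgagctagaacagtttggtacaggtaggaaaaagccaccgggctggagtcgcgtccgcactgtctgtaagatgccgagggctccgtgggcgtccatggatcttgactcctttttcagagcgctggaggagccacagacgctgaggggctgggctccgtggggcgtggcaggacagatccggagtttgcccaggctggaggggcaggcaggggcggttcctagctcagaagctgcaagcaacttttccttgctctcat
The Itgam window held 3 PU.1 matches, the Itgax window 1 GATA and 1 RUNX match, and the Itga1 and Itga2 windows none of the 5. RefSeq promoters were at hand for 20 of the 31 genes, in 23 windows. A PU.1 match stood in 10 of the 23 windows, against 28.3% of all 32851 promoters of that length, and GATA, RUNX, NF-kB and C/EBP matches in 4, 5, 4 and 1 windows, against 25.4%, 16.8%, 17.8% and 9.56%. A match is only a run of letters and says nothing of binding.

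**Figure D1:**
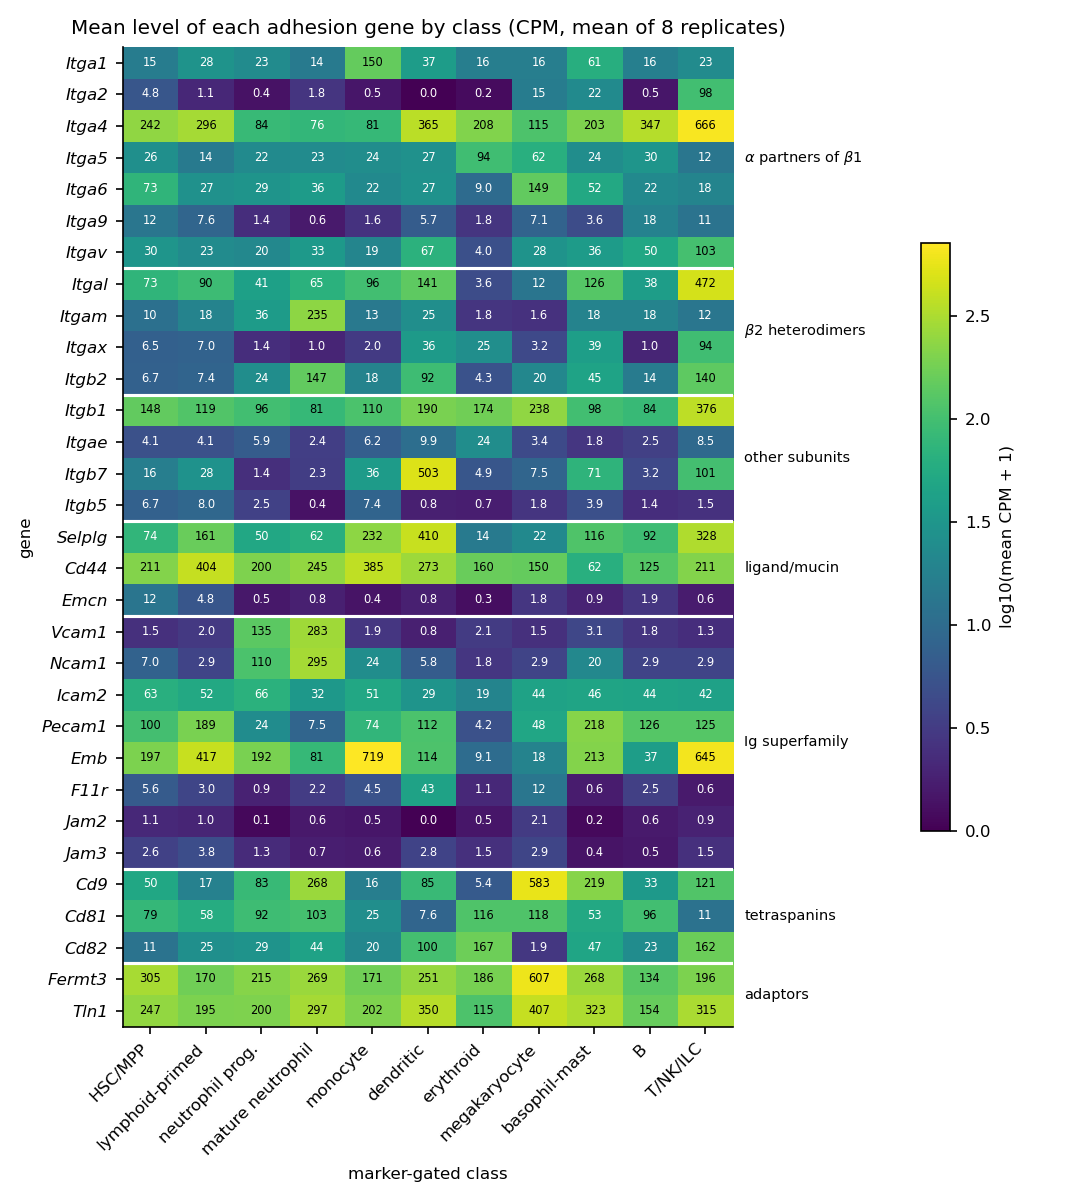
Mean CPM over 8 hashtag replicates of the 31 adhesion genes (rows, grouped by role) in 11 marker-gated classes (columns); colour is log10(mean CPM + 1) and the printed figure in each field is the mean CPM. Rows are to be read across: Vcam1 and Ncam1 were high in the 2 granulocytic columns, Itgb7 in the dendritic column and Fermt3 in the megakaryocyte column.

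The β1 integrin subunit and its α4 partner were found in every class. Itgb1 (chromosome 8, 128685654-128733200 in GRCm38), the common β chain of the fibronectin, laminin, collagen and VCAM-1 receptors, averaged 376 ± 56.3 CPM in the T, NK or innate lymphoid class and 238 ± 11.4 CPM in megakaryocyte progenitors (SD, n = 8). The ranges of these 2 classes did not overlap, and the lowest mean was 80.7 ± 21.2 CPM in mature neutrophils. Itga4 (chromosome 2, 79255426-79333123), the α4 chain, ran from 591 through a median of 658 to 810 CPM in the T, NK or innate lymphoid class. The dendritic range overlapped with it. Itga4 averaged 365 ± 139.5 CPM in the dendritic class, 347 ± 36.7 in B cells, 296 ± 39.6 in lymphoid-primed progenitors and 242 ± 27.7 CPM in the HSC class. The dendritic, B and lymphoid-primed ranges overlapped one another. In neutrophil-granulocyte, monocyte and mature neutrophil cells Itga4 averaged only 83.9, 81.3 and 76.4 CPM, and its log2 difference from the mean of the other classes was -1.09 ± 0.05, -1.26 ± 0.05 and -1.30 ± 0.13 (SE), each called by edgeR's quasi-likelihood test at an adjusted p under 0.05. Transcripts of the α4 chain were thus lower in the granulocytic and monocytic classes than across the other classes. Itga4 shares exon sequence on the other strand with Cerkl, and whether strand was used in counting is not stated here.

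Itga5, the fibronectin-binding α5 chain, was highest in erythroid progenitors. It had 77.3, a median of 92.1 and at most 109 CPM there, against 61.8 ± 6.88 CPM in megakaryocyte progenitors and at most 30.2 CPM on average in every other class. The erythroid and megakaryocyte ranges did not overlap. Itga6, the laminin-binding α6 chain, ran from 124 through 152 to 182 CPM in megakaryocyte progenitors and from 67.2 through 72.1 to 82.8 CPM in the HSC class, again without overlap, and averaged 8.97 ± 2.33 CPM in erythroid progenitors. Its log2 difference from the other classes was 2.34 ± 0.08 in megakaryocyte progenitors, 1.21 ± 0.07 in the HSC class and -1.90 ± 0.11 in erythroid progenitors. Transcripts of the fibronectin and laminin receptor chains thus parted in the erythroid class, where Itga5 was high and Itga6 low. Itgav, the αv chain of receptors for vitronectin and other RGD proteins, averaged 103 ± 29.4 CPM in the T, NK or innate lymphoid class, 67.2 ± 20.3 in the dendritic class and 4.01 ± 1.29 CPM in erythroid progenitors. Itgb5, a partner of αv, was low everywhere: its 3 highest means were 8.01 ± 2.63 in lymphoid-primed, 7.37 ± 1.18 in monocyte and 6.73 ± 2.09 CPM in HSC-class cells, which overlapped. Itga9, which with β1 binds tenascin-C, osteopontin and VCAM-1, averaged 17.7 ± 4.87 CPM in B cells and 12.1 ± 3.99 CPM in the HSC class, with overlapping ranges.

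The collagen-binding α1 and α2 chains come from the neighbouring genes whose promoters are printed above. Itga1 had 129, a median of 151 and at most 176 CPM in monocyte progenitors, against 60.7 ± 18.6 CPM in basophil-mast progenitors and 14.0 ± 7.03 CPM in mature neutrophils. Itga2 had 71.5, a median of 96.5 and at most 122 CPM in the T, NK or innate lymphoid class, against 22.1 ± 5.20 CPM in basophil-mast and 14.9 ± 4.91 CPM in megakaryocyte progenitors. For each gene the range in its highest class lay above that of the class after it. The log2 difference from the other classes was 2.86 ± 0.05 for Itga1 in monocyte progenitors and 6.4 ± 0.22 for Itga2 in the T, NK or innate lymphoid class. Itga2 encodes CD49b, a usual surface marker of mouse NK cells. In monocyte progenitors Itga2 averaged 0.486 CPM, and in the 348 dendritic-class cells it had no UMI, which allows up to 3.43 CPM (3 UMIs over the class, counting error only).

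The β2 integrins were spread over cell types by their α chain. Itgb2, their common β chain, averaged 147 ± 29.2 CPM in mature neutrophils and 140.0 ± 48.6 CPM in the T, NK or innate lymphoid class, which overlapped, 92.5 ± 50.9 in the dendritic class and 24.4 ± 3.26 in neutrophil-granulocyte progenitors. In the HSC, lymphoid-primed and erythroid classes it averaged 6.65, 7.41 and 4.30 CPM. Itgam, the αM chain of Mac-1, ran from 147 through 236 to 285 CPM in mature neutrophils and averaged 35.7 ± 4.03 CPM in neutrophil-granulocyte progenitors, with no overlap. It averaged 13.3 CPM in monocyte progenitors. Itgal, the αL chain of LFA-1, ran from 412 through 461 to 615 CPM in the T, NK or innate lymphoid class, above the dendritic (141 ± 42.9 CPM) and basophil-mast (126 ± 9.09 CPM) classes in all 8 replicates. It was also found in the HSC class at 73.3 CPM, and it was low in megakaryocyte (11.8 CPM) and erythroid (3.60 ± 1.52 CPM) progenitors. Itgax, the αX chain known as CD11c, averaged 94.3 ± 29.3 CPM in the T, NK or innate lymphoid class, 38.8 ± 11 in basophil-mast progenitors, 35.5 ± 27.9 in the dendritic class and 24.5 ± 7.0 in erythroid progenitors, and at most 7.0 CPM in every other class. The neighbouring genes Itgam and Itgax thus had different class orders: the mature neutrophil class, first for Itgam, averaged 0.966 CPM of Itgax. CD11c is known as a dendritic and macrophage protein. Among 956 erythroid cells of 10000 to 20000 UMIs, a UMI of any of 10 macrophage markers was found in 58.4% ± 8.25 of the 232 cells with an Itgax UMI and in 54.4% ± 3.29 of the 724 cells without one (SD over 8 replicates), and 57.0 of the 59.4 CPM of that list in erythroid cells were Slc40a1, the iron exporter; the part of these markers in the Itgax level was not tested.

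**Figure D2:**
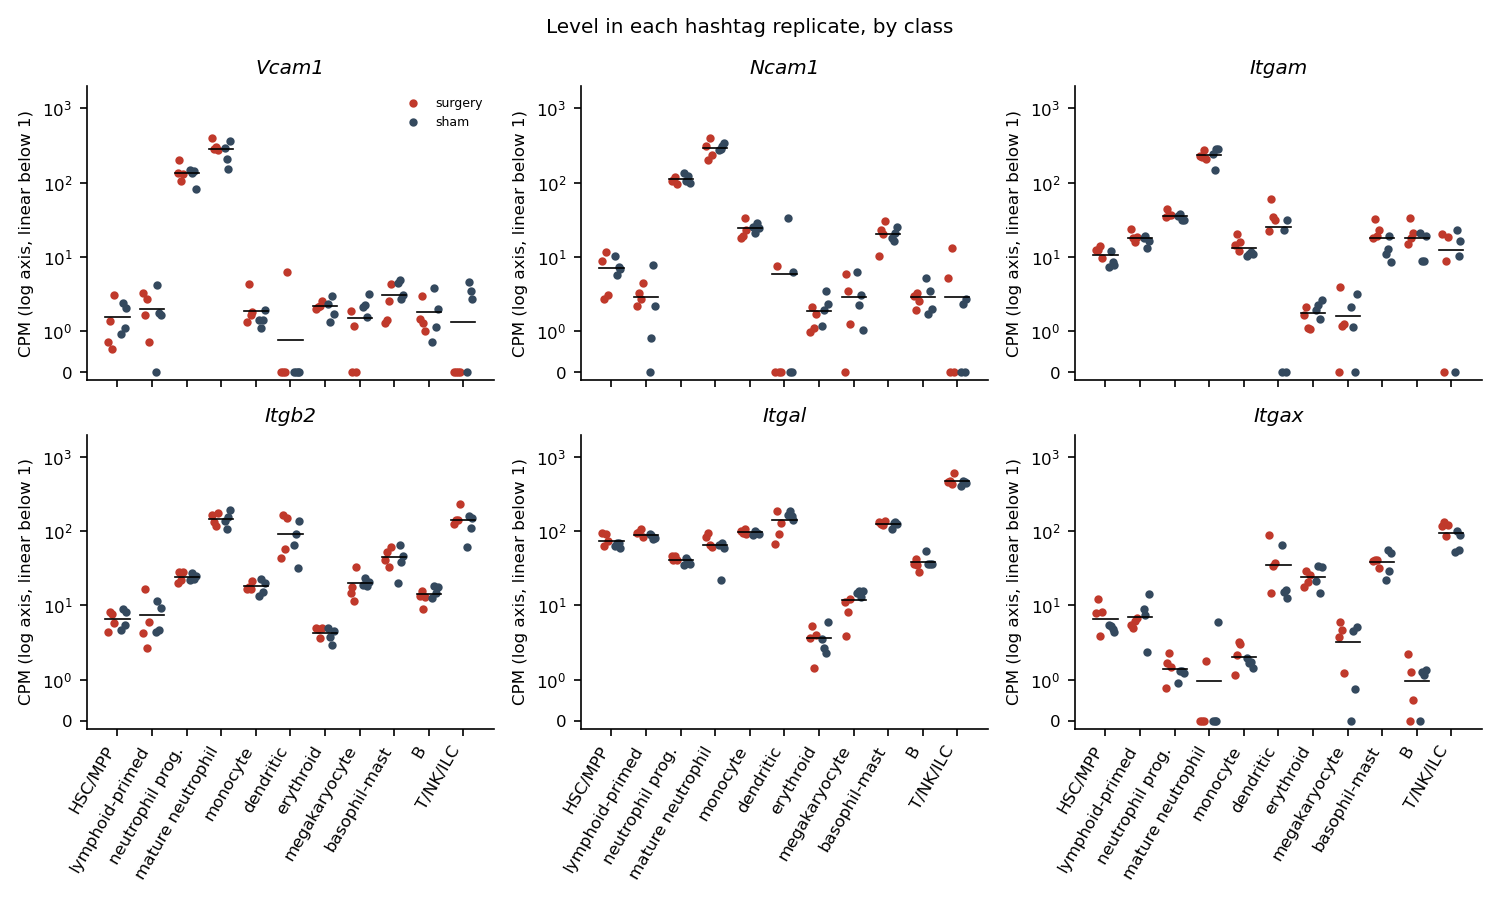
CPM in each of the 4 surgery (red, left) and 4 sham (dark, right) hashtag replicates of each class, with the mean of the 8 as a line; the vertical axis is logarithmic and linear below 1. Vcam1 and Ncam1 had at least 82.6 CPM in every replicate of both granulocytic classes, Itgam and Itgb2 had their highest mean in mature neutrophils, and Itgal and Itgax in the T, NK or innate lymphoid class.

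Itgae and Itgb7 encode the 2 chains of αEβ7, an E-cadherin receptor of mucosal lymphocytes, and β7 also pairs with α4 in the gut-homing receptor. Their levels did not run together. Itgb7 ran from 265 through 514 to 660 CPM in the dendritic class, against 101 ± 23.2 CPM in the T, NK or innate lymphoid class, 70.9 ± 8.49 in basophil-mast progenitors and 1.44 ± 0.457 CPM in neutrophil-granulocyte progenitors. The dendritic range lay above all others, with a log2 difference of 5.32 ± 0.13 from the other classes. Itgae averaged 24.0 ± 7.78 CPM in erythroid progenitors, in which Itgb7 averaged 4.87 CPM, and 9.90 ± 11.4 CPM in the dendritic class, and was above the dendritic value in all 8 replicates though the ranges overlapped.

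Selplg, the PSGL-1 mucin that binds P-selectin, ran from 262 through 398 to 552 CPM in the dendritic class. It averaged 328 ± 48.6 CPM in the T, NK or innate lymphoid class, whose range overlapped that of the dendritic class, 232 ± 9.24 in monocyte and 161 ± 21.6 in lymphoid-primed progenitors. It was 74.2 CPM in the HSC class and lowest in erythroid progenitors, at 13.6 ± 3.72 CPM. Cd44, which binds hyaluronan, averaged 404 ± 73.2 CPM in lymphoid-primed and 385 ± 44.8 CPM in monocyte progenitors, which overlapped, 211 CPM in the HSC class and 62.3 ± 15.5 CPM in basophil-mast progenitors. Cd44 was the member with the log2 difference furthest below 0 in the basophil-mast class but one (-1.80 ± 0.07), after F11r (-1.98). Emcn, a sialomucin of endothelium and of stem cells, was highest in the HSC class at 11.8 ± 3.63 CPM, against 4.81 ± 3.11 CPM in lymphoid-primed progenitors and at most 1.86 CPM elsewhere. Its log2 difference of 3.33 ± 0.21 was the highest of the 29 genes tested in the HSC class. The single endothelial or stromal cell found by the gate was in none of the 11 classes.

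Vcam1 and Ncam1 were highest in the 2 granulocytic classes. Vcam1 (chromosome 3, 116109949-116129688), better known as the stromal and endothelial ligand of α4β1 and also made by marrow macrophages, ran from 152 through 286 to 399 CPM in mature neutrophils and from 82.6 through 135 to 201 CPM in neutrophil-granulocyte progenitors. The 2 ranges overlapped, and no other class had a mean above 3.08 CPM. The log2 difference from the other classes was 6.68 ± 0.14 and 5.62 ± 0.08 in these 2 classes, and Vcam1 stood first among the 10 genes with the largest fold in neutrophil-granulocyte progenitors over the other gated cells. Ncam1 (chromosome 9, 49502136-49798925), a homophilic adhesion molecule of neurons and, in human, of NK cells, ran from 202 through 297 to 397 CPM in mature neutrophils and from 94.5 through 106 to 133 CPM in neutrophil-granulocyte progenitors. It averaged 24.1 ± 5.17 CPM in monocyte and 20.4 ± 6.08 CPM in basophil-mast progenitors and 2.90 CPM in the T, NK or innate lymphoid class. With cells reduced to 2000 UMIs each, 21.7% of 5432 neutrophil-granulocyte progenitors and 35.4% of 205 mature neutrophils were expected to hold a Vcam1 UMI, against 0.375% of 2423 B cells; without reduction the shares were 54.0%, 65.0% and 0.688%, at median depths of 16332, 8466 and 2761 UMIs. For Ncam1 the reduced shares were 21.2%, 43.3% and 0.591%.

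The same granulocytic cells tended to hold both transcripts. Among 2670 neutrophil-granulocyte progenitors of 10000 to 20000 UMIs, an Ncam1 UMI was found in 80.6% ± 3.24 of the 1552 cells with a Vcam1 UMI and in 59.3% ± 6.62 of the 1118 cells without one, and an Itgam UMI in 49.0% ± 5.24 and 30.3% ± 8.41 of them (SD over 8 replicates, each share higher with Vcam1 in all 8). Median depths of the cells with and without Vcam1 were 15206 and 15685 UMIs. The 10 macrophage markers summed to 33.9 CPM in neutrophil-granulocyte progenitors, of which 28.1 CPM were Slc40a1, and to 85.3 CPM in mature neutrophils. C1qc, Cd5l and Spic were at 0 in mature neutrophils. Every other marker of the list was higher there than in neutrophil-granulocyte progenitors. Over all cells of each class Slc40a1 had 67.1 against 28.1 CPM, Adgre1 4.19 against 2.65, Hmox1 3.73 against 0.961 and C1qb 1.40 (3 UMIs) against 0.0983 CPM. Among the 2670 neutrophil-granulocyte progenitors, at least 1 UMI of that list was in 47.4% ± 5.24 of the cells with Vcam1 and in 25.7% ± 5.21 of those without. For Ncam1 the shares were 43.2% ± 5.84 of the cells with it and 26.4% ± 4.51 of those without. Both differences held in all 8 replicates. The part of these markers in the Vcam1 and Ncam1 levels was not tested. The complement genes C1qa, C1qb and C1qc, which define macrophages, gave a UMI in 0.385% ± 0.442 of the cells with Vcam1 and 0.223% ± 0.413 of those without. Vcam1 and Ncam1 each share exon sequence with an antisense gene (Gm43109 and Gm11149).

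Among the other immunoglobulin-superfamily genes, Emb and Pecam1 were high in several classes and low in erythroid progenitors. Emb encodes embigin, a chaperone of monocarboxylate transporters, and ran from 701 through 717 to 736 CPM in monocyte progenitors. It averaged 645 ± 74.6 CPM in the T, NK or innate lymphoid class, which overlapped with the monocyte range, 417 ± 37.2 in lymphoid-primed progenitors, 197 CPM in the HSC class and 9.12 ± 4.57 CPM in erythroid progenitors. Pecam1, a homophilic molecule of platelets, leukocytes and endothelium, averaged 218 ± 24.7 CPM in basophil-mast and 189 ± 15.7 CPM in lymphoid-primed progenitors, with overlapping ranges, 100.02 CPM in the HSC class and 4.15 ± 1.03 CPM in erythroid progenitors. Icam2, a ligand of LFA-1, had means that ran from 65.6 ± 4.78 CPM in neutrophil-granulocyte progenitors and 63.0 ± 5.94 CPM in the HSC class, which overlapped, to 18.6 ± 4.88 CPM in erythroid progenitors. F11r, the junctional molecule JAM-A, averaged 42.8 ± 22.5 CPM in the dendritic class and 12.3 ± 4.08 CPM in megakaryocyte progenitors, above it in all 8 replicates though the ranges overlapped. Jam2 and Jam3, related junctional molecules, were near the limit of detection, with highest means of 2.12 ± 1.51 CPM (14 UMIs, megakaryocyte progenitors) and 3.78 ± 5.76 CPM (34 UMIs, lymphoid-primed progenitors), and no order of classes can be read from them.

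The 3 tetraspanins, membrane proteins that hold integrins in clusters, had separate patterns. Cd9 ran from 498 through 571 to 689 CPM in megakaryocyte progenitors, against 268 ± 34.3 CPM in mature neutrophils, 219 ± 28.8 in basophil-mast progenitors, 49.8 in the HSC class and 5.43 ± 3.14 CPM in erythroid progenitors. Cd82 was the reverse, at 167 ± 13.3 CPM in erythroid progenitors and 1.91 ± 1.40 CPM in megakaryocyte progenitors, with 162 ± 32.2 CPM in the T, NK or innate lymphoid class. Cd81 did not separate these classes, at 118 ± 20.1 CPM in megakaryocyte and 116 ± 12.5 CPM in erythroid progenitors, and was lowest in the dendritic class, at 7.58 ± 10.2 CPM. The log2 differences from the other classes were 3.40 ± 0.06 for Cd9 and -4.39 ± 0.22 for Cd82 in megakaryocyte progenitors, and -3.89 ± 0.12 for Cd9 and 2.79 ± 0.05 for Cd82 in erythroid progenitors. Megakaryocyte and erythroid progenitors thus carried opposite levels of the transcripts of 2 tetraspanins.

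The adaptors were present in all classes. Fermt3, kindlin-3, whose loss causes leukocyte adhesion deficiency in human, ran from 582 through 601 to 658 CPM in megakaryocyte progenitors, above the HSC class (305 ± 25.7 CPM) in all 8 replicates, and was lowest in B cells (134 ± 8.65 CPM). Tln1, talin, averaged 407 ± 43.8 CPM in megakaryocyte progenitors, 350.4 ± 41.5 CPM in the dendritic class, with overlapping ranges, and 115 ± 9.68 CPM in erythroid progenitors. Their log2 differences in megakaryocyte progenitors were 1.41 ± 0.04 for Fermt3 and 0.73 ± 0.04 for Tln1. From each of 3 lists of related genes 1 is named here: Rap1b, a small GTPase that switches integrins on, Itga2b, the αIIb chain of the platelet fibrinogen receptor, and Cd63, a tetraspanin of granules. Rap1b and Itga2b also had their highest class means in megakaryocyte progenitors, at 1148 ± 117.3 and 640 ± 83.4 CPM, and Cd63 in basophil-mast progenitors, at 2607 ± 199.3 CPM.

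Each class was then compared with the mean of the other classes in 1 edgeR quasi-likelihood fit over 88 class sums, with the replicate as a block, on 11991 genes; 29 of the 31 genes passed its filter, all but Jam2 and Jam3, and a gene was called at an adjusted p under 0.05. All 29 were called higher in at least 1 class. In the HSC class 13 were called higher and 9 lower, where 32.5% and 24% of all genes were. After Emcn, the largest log2 differences in the HSC class were those of Itga2 (1.68), Itgb5 (1.55), Itga9 (1.46) and Itga6 (1.21), and those furthest below 0 were Itgb2 (-2.24) and Cd82 (-1.78). Itga2, Itgb5, Itga9 and Itga6 each had their highest mean in another class. Levels were low for Itga9, at 12.1 CPM in the HSC class, and for Itgb5, whose highest class mean was 8.01 CPM. The Itga2 level was low as well: its HSC-class mean lay below those of basophil-mast (22.1 CPM) and megakaryocyte progenitors. The other classes in its log2 difference include the dendritic class, at 0 CPM. In lymphoid-primed progenitors 11 were higher and 11 lower (all genes 29.4% and 20.9%), in neutrophil-granulocyte progenitors 11 and 11 (41.6% and 33.8%), in mature neutrophils 11 and 9 (20.8% and 25.7%), and in monocyte progenitors 12 and 14 (39.4% and 29.8%). In megakaryocyte progenitors 9 were higher and 14 lower (28.2% and 23.6%), with a median log2 difference of -0.42 against 0.01 over all genes. That class thus leaned to the lower side. In neutrophil-granulocyte progenitors both counts, and in monocyte and megakaryocyte progenitors the counts of higher genes, lay near the background.

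The erythroid, B, basophil-mast, dendritic and T, NK or innate lymphoid classes were also one-sided. In erythroid progenitors 7 of the 29 genes were called higher and 21 lower, while 44% and 36.6% of all genes were, and the median log2 difference of the 29 was -1.32, against 0.04 over all genes. The 7 were Cd82, Itgae, Itgax, Itga5, Cd81, Itgb1 and Itga4. In B cells 5 were higher and 17 lower (36.3% and 30.8%), the 5 being Itga9, Pecam1, Cd81, Itga4 and Itgav. In basophil-mast progenitors 18 were higher and 4 lower (28.4% and 24.7%), with Itga2 (4.14) and Itgax (2.85) furthest above 0. In the dendritic class 13 were higher and 3 lower (18.4% and 20%), and in the T, NK or innate lymphoid class 15 and 5 (26.1% and 24.2%), with medians of 0.35 and 0.81 against -0.14 and -0.03 over all genes. These counts describe the 29 genes, which were not drawn at random.

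**Figure D3:**
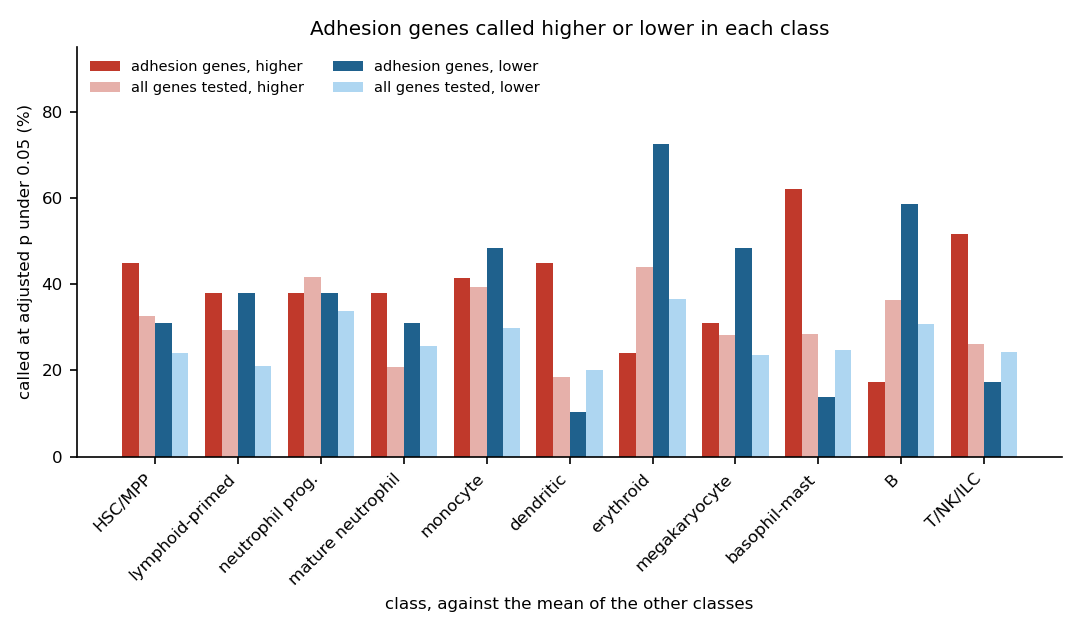
Share of the 29 adhesion genes in the fit called higher (dark red) or lower (dark blue) in each class than in the mean of the other classes at an adjusted p under 0.05, beside the share of all 11991 genes (pale bars). Basophil-mast progenitors had 18 of 29 higher and erythroid progenitors 21 of 29 lower.

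Surgery was compared with sham within each class on UMIs summed per replicate, with batch as a term, to learn whether ligation altered the adhesion transcripts of marrow progenitors 9 days later. None of the 31 genes was called in any of the 11 classes or in all cells pooled. In the 11 classes together 227 gene and class pairs passed the filter on low counts, 0 were called at an adjusted p under 0.05 by edgeR's quasi-likelihood test, and 18 (7.93%) had an unadjusted p under 0.05, where 4.49% of the 93949 tests over all genes did; DESeq2 called 0 as well. Over all genes the share called was 0.0853% in the HSC class, 0.426% in lymphoid-primed, 0.0723% in monocyte, 0.0383% in neutrophil-granulocyte and 0.0113% in basophil-mast progenitors, 0.0602% in B cells, 0.05% in mature neutrophils, 0.0365% in the dendritic class, 0.0415% in all cells and 0% in erythroid and megakaryocyte progenitors and the T, NK or innate lymphoid class. Of the 227 log2 fold changes 118 were above and 109 below 0. A gene at an adjusted p above 0.05 is not shown to be the same in surgery and sham marrow: the 95% intervals bound how far it may differ. The median reach of these intervals to either side was 0.16 in neutrophil-granulocyte and 0.18 in monocyte progenitors, 0.30 in the HSC class and 0.51 in the dendritic class on the log2 scale.

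In the HSC class the surgery and sham values overlapped for the integrin chains, the selectin ligand Selplg, Cd44, Emb and the adaptors given here. Values are listed as replicates 1 and 2 of batch 1 and then 1 and 2 of batch 2. Itga4 had 205, 275, 284 and 233 CPM in the surgery replicates, against 219.9, 254, 245 and 221 CPM in the sham replicates. Itgb1 had 141, 148, 154 and 135 CPM in surgery, against 159, 137, 145 and 162 CPM in sham. Both pairs of groups overlapped, and the log2 fold changes, surgery over sham, were 0.09 (95% interval -0.08 to 0.26) for Itga4 and -0.04 (-0.20 to 0.11) for Itgb1. Itga6 had 71.3, 72.8, 67.2 and 74.1 CPM in surgery, against 68.1, 77.1, 82.8 and 71.4 CPM in sham, a log2 fold change of -0.06 (-0.27 to 0.14). All 3 intervals held 0, and for α4, β1 and α6 the groups were not told apart.

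Selplg had 76.3, 61.8, 82.8 and 76.8 CPM in the surgery replicates of the HSC class, against 72.7, 68.3, 78.0 and 76.7 CPM in the sham replicates. Cd44 had 219, 217, 187 and 207 CPM in surgery, against 207, 233, 219 and 196 CPM in sham. The log2 fold changes were 0.02 (-0.19 to 0.22) for the selectin ligand and -0.04 (-0.18 to 0.10) for the hyaluronan receptor, with overlapping groups. Fermt3 had 302, 306, 336 and 268 CPM in surgery, against 321, 326, 311 and 266 CPM in sham. Tln1 had 268, 249, 254 and 243 CPM in surgery, against 237, 244, 241 and 238 CPM in sham. The kindlin differed by -0.01 (-0.15 to 0.14) and talin by 0.08 (-0.04 to 0.20), and talin was above the sham mean of 240 ± 3.06 CPM in all 4 surgery replicates though the lowest of them lay inside the sham range. Emb had 205, 187, 216 and 225 CPM in surgery, against 149, 184, 198 and 212 CPM in sham, 0.16 (0.01 to 0.30), with overlapping groups and an adjusted p of 1.0 in edgeR. Within batches 1 and 2 its log2 fold changes were 0.20 and 0.13. Itgal had 94.3, 92.7, 63.8 and 74.7 CPM in surgery, against 63.5, 68.7, 69.5 and 59.3 CPM in sham, 0.31 (0.09 to 0.53), with an unadjusted p of 0.00754 and an adjusted p of 1.0 in edgeR. The Itgal difference was 0.48 in batch 1, where both surgery values lay above both sham values, and 0.16 in batch 2, where they did not.

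**Figure D4:**
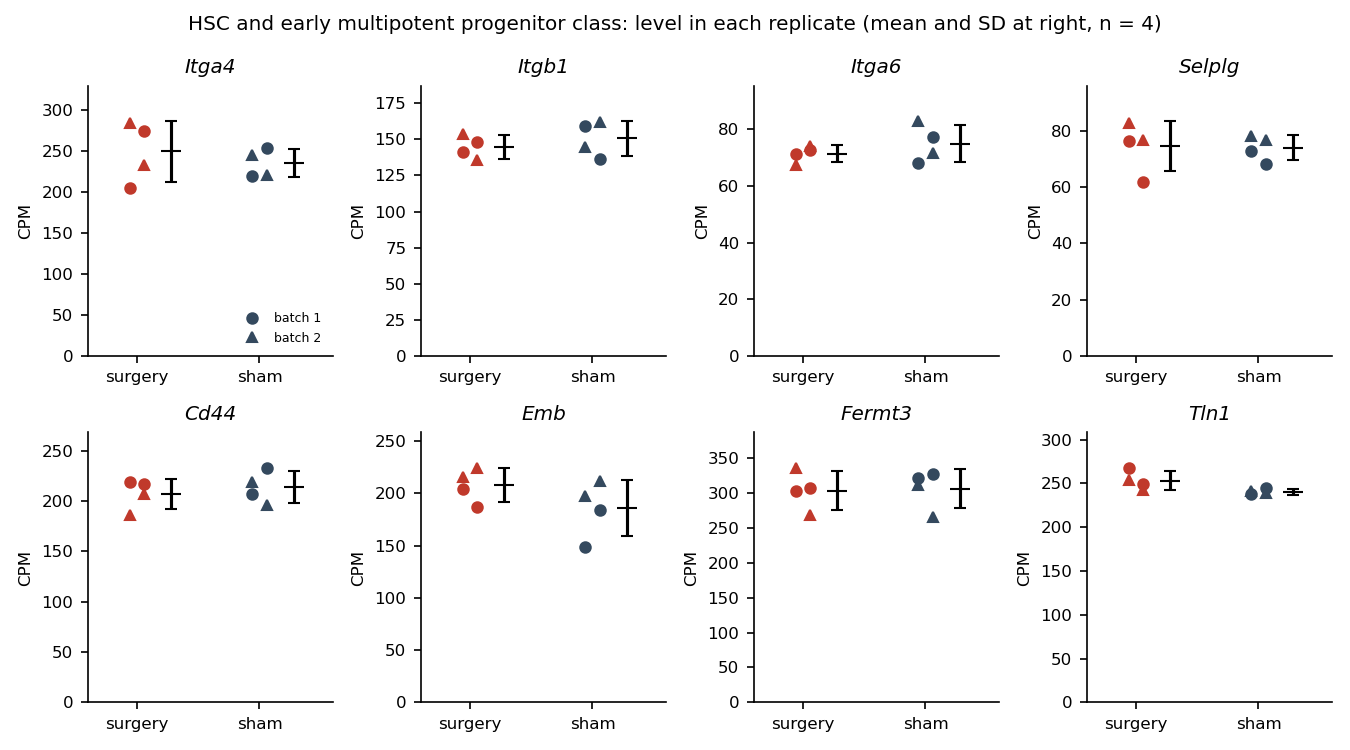
CPM of 8 adhesion genes in each surgery (red, left) and sham (dark, right) replicate of the HSC and early multipotent progenitor class, circles for batch 1 and triangles for batch 2, with the mean and SD of each group of 4 beside the points. The groups overlap for all 8 genes.

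The lowest unadjusted p among the 227 pairs belonged to Emb in mature neutrophils. Emb had 53.6, 57.9, 56.0 and 51.8 CPM in the surgery replicates, against 67.9, 103, 178 and 77.2 CPM in the sham replicates (168 UMIs in all). The groups did not overlap, and the log2 fold change was -1.04 (-1.61 to -0.47), with an unadjusted p of 0.000681 and an adjusted p of 0.545 in edgeR. Without the second sham replicate of batch 2 the adjusted p was 0.0210, and over the other alternatives it reached at most 1.0. The 12 monocyte markers, whose progenitors held the highest Emb level, summed to between 235 and 314 CPM in the surgery replicates and between 143 and 754 CPM in the sham replicates of this class. The 10 lymphoid-primed markers, of another class rich in Emb, summed to between 336 and 447 CPM in surgery and between 449 and 588 CPM in sham, without overlap, and the part of either list in the difference was not tested.

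In lymphoid-primed progenitors Itga6 and Cd44 had the lowest unadjusted p of the 31 genes (0.00308 and 0.00389), and neither was called. Itga6 had 24.7, 31.1, 37.7 and 40.7 CPM in surgery, against 13.2, 26.4, 16.6 and 22.9 CPM in sham, a log2 fold change of 0.67 (0.24 to 1.10) with an adjusted p of 0.316 in edgeR. Cd44 had 434, 315, 338 and 360.0 CPM in surgery, against 541, 449.8, 425 and 371 CPM in sham, -0.27 (-0.44 to -0.09) with an adjusted p of 0.347. Both pairs of groups overlapped, and both directions held within each batch (0.27 and 0.98 for Itga6, -0.39 and -0.15 for Cd44). Without the second sham replicate of batch 1 Itga6 was called (adjusted p 0.0366), and with a stricter gate Cd44 was called (-0.42, adjusted p 0.0272). The 14 HSC markers summed to between 1232 and 1409 CPM in the surgery replicates and between 1466 and 1670 CPM in the sham replicates of lymphoid-primed cells. The 13 megakaryocyte markers, of the class highest in Itga6, summed to between 226 and 259 CPM in surgery and between 259.5 and 279 CPM in sham, without overlap. The 12 monocyte markers, of a class rich in Cd44, summed to between 1223 and 1341 CPM in surgery and between 1328 and 1565 CPM in sham, and the part of these 3 lists in the differences was not tested.

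The next 5 gene and class pairs, chosen after their values were seen because the groups did not overlap, were not called. Over the 11 classes the groups did not overlap in 6 of 341 gene and class pairs, which are these 5 and Emb in mature neutrophils. The share of such pairs over all genes was not computed, so nothing is read from this count. Cd9 in B cells had 36.0, 46.7, 42.7 and 36.6 CPM in surgery, against 31.7, 18.6, 25.2 and 29.9 CPM in sham, a log2 fold change of 0.67 (0.30 to 1.04; edgeR adjusted p 0.356). Cd82 in B cells had 16.9, 16.0, 17.5 and 23.1 CPM in surgery, against 32.5, 25.0, 24.0 and 31.9 CPM in sham, -0.56 (-0.96 to -0.17; edgeR adjusted p 0.726). Neither tetraspanin was called in B cells. The 15 erythroid markers, in whose progenitors Cd82 was highest, summed to between 274 and 306 CPM in surgery and between 324 and 639.9 CPM in sham B cells, and their part was not tested. Itgam in monocyte progenitors had 14.5, 11.9, 20.1 and 16.0 CPM in surgery, against 10.2, 11.6, 10.8 and 10.9 CPM in sham, 0.49 (0.22 to 0.77; edgeR adjusted p 0.503). The 11 mature neutrophil markers summed to between 184 and 324 CPM in surgery and between 143 and 253 CPM in sham monocyte progenitors, with their part not tested. Itgb1 in basophil-mast progenitors had 75.1, 75.4, 98.0 and 98.6 CPM in surgery, against 110.3, 117, 106 and 99.7 CPM in sham, -0.30 (-0.56 to -0.04; edgeR adjusted p 1.0). Itgal in megakaryocyte progenitors had 11.1, 8.11, 3.92 and 12.2 CPM in surgery, against 14.6, 13, 15.6 and 15.5 CPM in sham, -0.65 (-1.39 to 0.08; edgeR adjusted p 1.0).

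Vcam1 in neutrophil-granulocyte progenitors had 134, 106, 201 and 130.1 CPM in the surgery replicates, against 149, 142, 135 and 82.6 CPM in the sham replicates. The groups overlapped, with a log2 fold change of 0.18 (-0.21 to 0.57; edgeR adjusted p 1.0) that was -0.28 in batch 1 and 0.59 in batch 2. Without the filter on low counts the same comparison gave 0.17 and an adjusted p of 0.0437. Ncam1 in the same class had 105, 117, 107 and 94.5 CPM in surgery, against 133, 121, 105 and 97.9 CPM in sham, -0.09 (-0.22 to 0.03; edgeR adjusted p 1.0). Over all 11 classes the log2 fold changes of 6 integrin, ligand and adaptor genes ran from -0.45 to 0.36 for Itga4, -0.30 to 0.32 for Itgb1, -0.34 to 0.21 for Selplg, -0.28 to 0.07 for Cd44, -0.17 to 0.13 for Fermt3 and -0.13 to 0.17 for Tln1. In all cells pooled, where a difference in the mix of cell types and a difference in RNA per cell cannot be told apart, Itgb1 had 121, 121, 111 and 117 CPM in surgery, against 125, 123, 123 and 122 CPM in sham, -0.06 (-0.12 to 0.01; edgeR adjusted p 1.0).

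**Figure D5:**
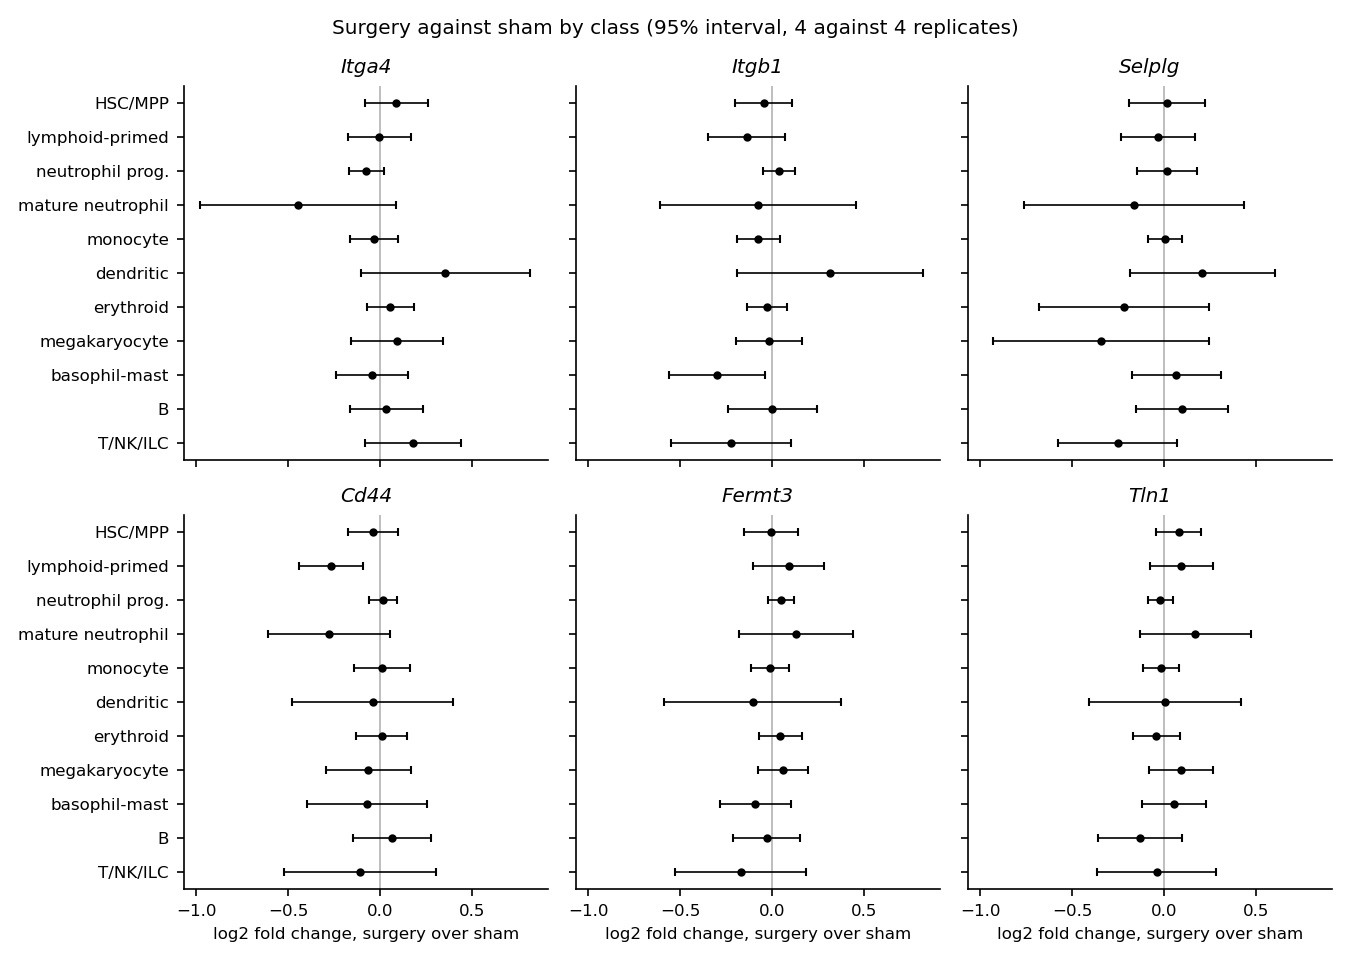
Log2 fold change, surgery over sham, of 6 adhesion genes in the 11 classes, with 95% intervals from edgeR (4 surgery against 4 sham replicates, batch as a term). Points lie on both sides of 0, and of these intervals only those of Itgb1 in basophil-mast and Cd44 in lymphoid-primed progenitors leave out 0.

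Whether the difference between surgery and sham differed between batches was tested as their interaction. With the low-count filter it called 0 of the 31 genes in every class and in all cells. Over all genes it called from 0% in B cells and all cells to 0.275% in mature neutrophils (0.0569% in the HSC class, 0.0475% in the T, NK or innate lymphoid class, 0.00974% in erythroid, 0.032% in lymphoid-primed, 0.0708% in megakaryocyte, 0.0803% in monocyte, 0.00767% in neutrophil-granulocyte and 0.113% in basophil-mast progenitors and 0.11% in the dendritic class). Without that filter it called 7 of the 31 genes in all cells, where 624 of 29465 genes were called, 2 in neutrophil-granulocyte (229 of 26853), 1 in monocyte (153 of 25820) and 1 in lymphoid-primed progenitors (65 of 21729). With the filter the lowest p was that of Cd44 in monocyte progenitors, whose log2 fold change was higher by 0.43 (0.22 to 0.64) in batch 2 than in batch 1, with an unadjusted p of 0.000464 and an adjusted p of 0.188 in edgeR. Related genes were read in the same way. Of 40 integrin adaptors and signalling genes 0 of 335 gene and class tests were called in either direction, with a median log2 fold change of 0.01. Of 11 integrin subunits outside the 31 genes 0 of 20 tests were called (median -0.02), and of 33 other adhesion receptors, ligands and retention factors 0 of 178 (median 0.01). The lowest adjusted p in these lists was 0.132.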

How the data were processed

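Gene UMI counts and hashtag counts per barcode were used as deposited by the authors; per the submitters' processing notes they were made with Cell Ranger on GRCm38. Barcodes with at least 500 genes and 1000 UMIs and at most 10% mitochondrial UMIs were kept, and a barcode with exactly 1 hashtag of at least 200 counts was given to that replicate. Hashtag counts were 22.2% and 16.1% of all counts in batches 1 and 2 and were left out of library sizes. Cells were gated on marker scores (at least 0.3, at least 3 markers, a margin of 0.2 over the next class) that used none of the 31 genes. UMIs were summed per replicate and class and tested with edgeR 4.0.16 (quasi-likelihood, batch as a term, Benjamini-Hochberg adjustment over all genes that passed the low-count filter) in R 4.3.3; DESeq2 1.42.0 was an alternative. Intervals are 95%, and floors of 3 UMIs cover counting error only. Expected shares of cells with a UMI were computed at 2000 UMIs per cell, leaving out shallower cells. The fits were also run on simulated counts with planted differences. These were larger than most surgery differences given here, so that run does not show how small a difference would be found. Tables were handled with Python 3.11.15 (pandas 2.3.3, scipy 1.17.1) and figures with matplotlib 3.10.9. Every member is named with the class of its highest mean, and values per replicate are given for members of low unadjusted p and for integrin subunits, ligands and adaptors of high level; those of low p, without overlap or of interest by class (Vcam1, Ncam1) were chosen after their values were seen. The members, gene lists, markers and tests were chosen with earlier results of these data known. Eosinophil progenitors (126 cells) and classes of 16 or fewer cells were not tested. Protein sequences were not used here.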

Additional observations from a re-analysis of the deposited data

Results flagged for a closer look

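Itgal in the T, NK or innate lymphoid class had 615 CPM in the second surgery replicate of batch 2, while the other 7 replicates lay between 412 and 477 CPM. Its gap to the nearest replicate was 0.680 of the whole range, above the 95% critical value of Dixon's test for 8 samples. It was the 1 such case among 65 sets of replicates examined, of which chance flags about 1 in 20.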

How the results depend on the processing

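Levels in the highest class (434 recomputed values) all stayed less than the SD over replicates away from the main mean. Whether that class stayed the highest was not checked. Fold changes of the highest class over the other classes (433) kept their direction and call wherever the gene passed the filter. With the stricter gate 27 of the 29 genes passed it. The counts of genes called between surgery and sham moved. Without the low-count filter they were 90 in B, 34 in HSC, 8 in T, NK or innate lymphoid, 12 in basophil-mast, 2 in dendritic, 14 in erythroid, 70 in lymphoid-primed, 18 in mature neutrophil, 12 in megakaryocyte, 65 in monocyte and 99 in neutrophil-granulocyte cells and 22 in all cells. DESeq2 called 11 genes in B, 5 in HSC, 0 in dendritic, 16 in lymphoid-primed, 0 in mature neutrophil, 15 in monocyte and 10 in neutrophil-granulocyte cells and 21 in all cells. Without the batch term the counts were 1 in B, HSC, monocyte and neutrophil-granulocyte cells, 0 in dendritic cells, mature neutrophils and all cells and 23 in lymphoid-primed cells. A stricter gate gave 3 in B, 0 in dendritic and mature neutrophil and 13 in neutrophil-granulocyte cells, and a looser gate 0 in basophil-mast, dendritic and mature neutrophil and 25 in lymphoid-primed cells. Batch 1 alone gave 11 in B, 3 in HSC and T, NK or innate lymphoid, 0 in basophil-mast, dendritic and all cells, 19 in lymphoid-primed and 16 in mature neutrophil cells. Batch 2 alone gave 1 in B, erythroid, mature neutrophil and all cells, 21 in basophil-mast, 4 in dendritic, 9 in megakaryocyte, 36 in monocyte and 14 in neutrophil-granulocyte cells. The causes were not tested.

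No pairing by replicate number was seen: the deviations of same-numbered surgery and sham replicates had correlations of -0.10 to 0.05 across genes. With 2 replicates of each group in a batch, these values cannot show that there was none. With the replicate number as a block, the counts of genes called were 17 in B, 4 in HSC, 0 in dendritic, 1 in mature neutrophil and 9 in neutrophil-granulocyte cells and 0 in all cells.

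Leaving out 1 replicate at a time gave 0 to 23 genes called in B, 2 to 9 in HSC, 0 to 3 in T, NK or innate lymphoid, 0 to 2 in basophil-mast, 0 to 8 in dendritic, 22 to 47 in lymphoid-primed, 1 to 10 in mature neutrophil, 0 to 3 in megakaryocyte and 3 to 13 in neutrophil-granulocyte cells and 0 to 8 in all cells. Of the 31 genes, 0 to 1 were called in lymphoid-primed and in mature neutrophil cells, beside the 22 to 47 and 1 to 10 called over all genes. Log2 fold changes then ran from -0.10 to 0.00509 for Itgb1, -0.0269 to 0.0792 for Selplg and -0.0874 to 0.0416 for Fermt3 in the HSC class, from -0.0429 to 0.33 for Vcam1 in neutrophil-granulocyte cells, 0.53 to 1.0 for Itga6 in lymphoid-primed cells and -1.27 to -0.60 for Emb in mature neutrophils.

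Among the 31 genes, 1 was called between surgery and sham in lymphoid-primed cells with the stricter gate (Cd44) and 1 in neutrophil-granulocyte cells without the filter (Vcam1). Over all genes that unfiltered fit called 99 in neutrophil-granulocyte cells. In lymphoid-primed cells the main run called 40 of 9387 genes. For the interaction with batch the unfiltered fit called 1 in lymphoid-primed (65 of 21729 genes in all), 1 in monocyte (153 of 25820) and 2 in neutrophil-granulocyte cells (229 of 26853) and 7 in all cells (624 of 29465). The direction turned for Itgb1 (0.0403, stricter gate), Selplg (-0.00590, looser gate, and -0.0321, batch 1 alone) and Fermt3 (4.63e-05, looser gate, and 0.0676, batch 2 alone) in the HSC class, and for Vcam1 in neutrophil-granulocyte cells (-0.28, batch 1 alone). Of the 29 genes in the class fit, the number lower than in the other classes was 2 in basophil-mast (13.6% of all genes), 1 in dendritic (11.9%), 5 in HSC (14.4%) and 9 in monocyte cells (19.7%) in batch 1 alone, 5 in mature neutrophil (16.5%) and 3 in T, NK or innate lymphoid cells (18.7%) in batch 2 alone, and 5 in dendritic cells with the looser gate (21.7%) and with a hashtag minimum of 500 (22.5%). Few cells limit the dendritic and mature neutrophil values, and 4 replicates a group limit all surgery comparisons.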
